A study of Mus musculus with 6 samples.

Results

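The cyclin genes and the cyclin-dependent kinase (CDK) genes of the mouse were followed in RNA from whole testes. They were taken by symbol: Ccn with a single letter and an optional digit, or Cdk with digits only. This gave 44 genes, 25 cyclins and 19 CDKs, of 36652 in the deposited table. The testes came from mice aged 8 weeks, with 3 libraries labelled WT and 3 labelled Ccdc117ko, in which the gene of a coiled-coil protein, Ccdc117, is named as lost. The allele is not described, and nothing says that each replicate is another mouse. The p-values therefore measure only the spread between these libraries, which may be technical.

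Gene totals did not set the genotypes apart at Ccdc117 itself. It had 3657, 3826 and 3931 normalized counts under the WT label and 3478, 3772 and 3908 under the Ccdc117ko label, which overlap. The limma log2 fold change was -0.03 (SE 0.05, adjusted p = 0.763). Such a total is no check of the genotype, which rests on the labels, and each direction given compares libraries by label, Ccdc117ko with WT.

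Cyclins are regulatory proteins that bind and switch on CDKs, which are inactive alone. A first class drives the cell cycle: D-type cyclins with Cdk4 and Cdk6 start it, E- and A-type cyclins with Cdk2 carry DNA replication, and A- and B-type cyclins with Cdk1 carry division. A second class acts on RNA polymerase II and on RNA processing and does not oscillate with division. In the testis, cyclin A1 is known as the A-type cyclin of meiotic spermatocytes, Cdk2 as necessary for meiosis, and Cdk16 with cyclin Y as necessary for normal sperm.

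The promoters of members whose RNA changed are shown first, with that of Ccnb2, a mitotic and meiotic cyclin whose RNA did not pass the test, beside them. RefSeq windows on GRCm38.p6 were read for 34 of the 44 members, Cdk5 not among them. Each line gives the 250 bases before the RefSeq transcript start, 5′ to 3′ on the strand of the gene, with matches to searched motifs in capitals. The windows are chr3:65958250-65958499, minus strand for Ccnl1, chrX:7041620-7041869, minus strand for Ccnb3, chr11:98203055-98203304, plus strand for Cdk12 and chr9:70421555-70421804, minus strand for Ccnb2. In GENCODE M21, the source of the gene coordinates given below, Cdk12 starts at base 98203059. That base is inside the RefSeq window, so most of the window lies within the gene as GENCODE places it.
Ccnl1: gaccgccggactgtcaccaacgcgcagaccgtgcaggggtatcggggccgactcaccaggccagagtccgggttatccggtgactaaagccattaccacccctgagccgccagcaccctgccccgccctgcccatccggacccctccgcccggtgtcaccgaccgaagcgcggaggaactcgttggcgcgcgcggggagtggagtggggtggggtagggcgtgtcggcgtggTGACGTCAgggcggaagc
Ccnb3: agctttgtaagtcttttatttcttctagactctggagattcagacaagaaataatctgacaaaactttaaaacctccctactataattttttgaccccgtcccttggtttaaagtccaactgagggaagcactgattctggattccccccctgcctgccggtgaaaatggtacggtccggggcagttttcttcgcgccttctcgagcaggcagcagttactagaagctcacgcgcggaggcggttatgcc
Cdk12: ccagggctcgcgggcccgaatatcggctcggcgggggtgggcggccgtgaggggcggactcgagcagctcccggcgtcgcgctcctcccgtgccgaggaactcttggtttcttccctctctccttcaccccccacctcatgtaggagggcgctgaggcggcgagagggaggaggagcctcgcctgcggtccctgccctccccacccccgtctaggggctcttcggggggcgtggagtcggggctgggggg
Ccnb2: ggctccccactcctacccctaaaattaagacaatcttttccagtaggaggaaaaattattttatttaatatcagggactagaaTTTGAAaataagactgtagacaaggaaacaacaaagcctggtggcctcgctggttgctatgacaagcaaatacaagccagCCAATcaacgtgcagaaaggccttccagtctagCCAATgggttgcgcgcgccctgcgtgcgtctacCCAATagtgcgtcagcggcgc

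The motifs, searched on both strands, were the cell cycle homology region TTTGAA, the CCAAT box, the E2F sites TTTGGCGC and TTTCCCGC, the cyclic AMP response element TGACGTCA and the Myb core AACGG. Ccnl1, the member that rose, held the cyclic AMP response element, its first base 18 bases before the start, and was the only one of the 34 members with it, against 1.62% of 27025 promoters of the same length. Ccnb3 and Cdk12, which fell, held none of the searched letters. Neither did several members that were not called, among them Ccnd3, Ccne1, Cdk4 and Cdk7. Ccnb2 held CCAAT boxes that begin 87, 54 and 21 bases before the start and TTTGAA at 167 bases. CCAAT was found in 16 of 34 members (47.1%) and in 34.5% of all promoters, and TTTGAA in 5 members (Ccnb2, Ccnf, Ccni, Cdk1 and Cdk16), 14.7% against 16.3%. TTTCCCGC was in 1 member, Cdk2, and in 0.929% of all promoters. AACGG was in 6 members, 17.6% against 14.8%. These are matches of letters in a short window and say nothing of binding.

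Libraries held 35791616 to 43461692 reads, recovered from the steps of the deposited values, and levels below are normalized counts, reads divided by a size factor for each library. All members passed the filter of a mean of at least 0.5 normalized counts, the lowest being Cdk3. Of the marker lists, only that of round spermatid genes rose in full, 10 of 10, Acrv1 and Spaca1 among them. Their summed level was 50314 to 56411 normalized counts in the WT libraries and 64186 to 67724 in the Ccdc117ko libraries. That list holds genes already known to rise in these libraries, so its count is not independent evidence. Among Sertoli markers 6 of 10 fell, Gata4 and Kitl among them (53031 to 54377 normalized counts in the WT libraries and 47895 to 49835 in the Ccdc117ko libraries). Spermatogonial markers had 2 of 12 lower, Kit and Etv5, and spermatocyte markers 1 higher and 3 lower of 12. By limma at an adjusted p of 0.05, 3.70% of all genes tested rose and 3.10% fell. The summed spermatocyte level was 167822 to 174454 normalized counts in the WT libraries and 173988 to 177030.1 in the Ccdc117ko libraries. The part of these markers in the results on cyclins and CDKs was not tested. In RNA of a whole tissue, fewer cells of a type and less RNA per cell cannot be told apart.

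Members differed far more from each other in level than the genotypes did. In WT testes Ccnk, which encodes the partner of Cdk12 and Cdk13, led with 7417 ± 131 normalized counts per kilobase (SD, n = 3). Ccnb2 followed with 4052 ± 78.9, the atypical cyclin Ccni with 3681 ± 74.9 and Ccna1, the meiotic A-type cyclin, with 3212 ± 365. Ccna1 had the largest SD of these 4, and with the longest transcript in place of all exons Ccni ranked above Ccnb2. Cdk16 at 1345 ± 72.7 was the highest CDK, and Cdk5 stood at 567 ± 5.47. With the longest transcript as the length Cdk16 was still the highest CDK, and Cdk2, Cdk4, Cdk10 and Cdk9 ranked above Cdk5. Ccnd3 at 760.2 ± 53.0 stood far above the other D-type cyclins, Ccnd1 at 76.9 ± 5.84 and Ccnd2 at 21.8 ± 2.06. Ccna1 had 3212 per kilobase against 96.4 for Ccna2, the A-type cyclin of dividing somatic cells. At the low end were Cdk15 at 18.6 ± 5.71 and Cdk3, a gene that carries a premature stop in common laboratory strains, at 12.9 ± 5.67. Ccnb1 shares 42.1% of the 50-base words of its longest transcript with other genes, Ccnb1-ps first. For Ccni the share is 17.3% and for Cdk10 13.4%, so reads of these genes may be split. Exons of 18 of the 44 members overlap those of a gene on the opposite strand.

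**Figure D1:**
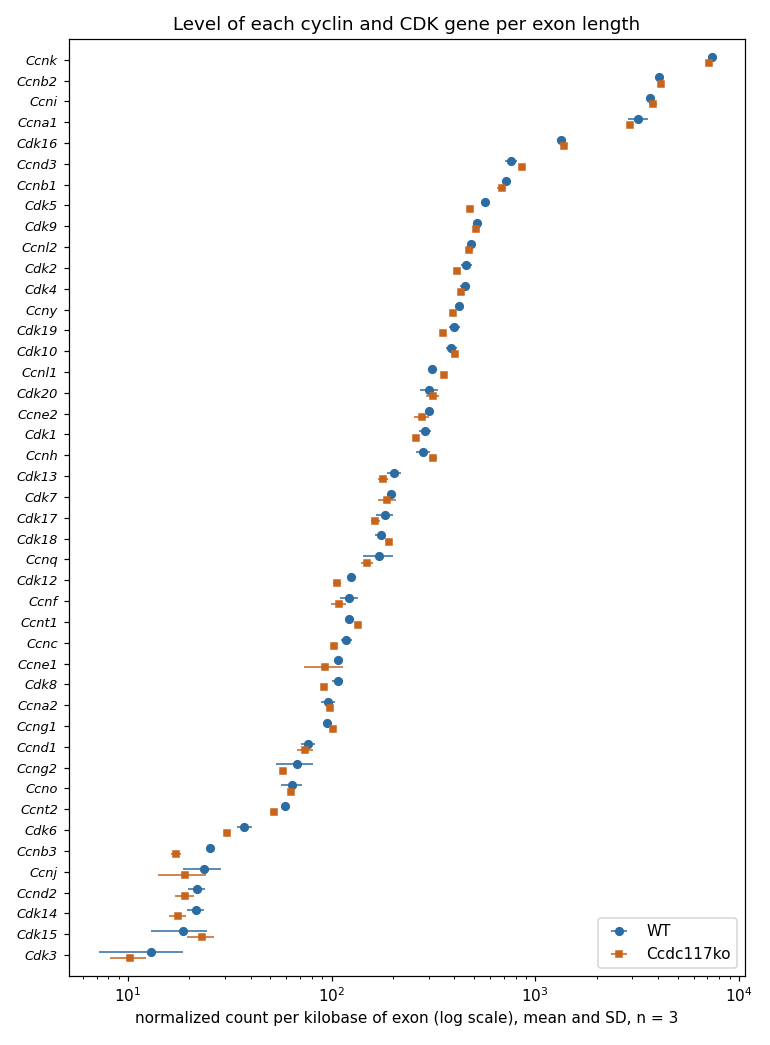
Normalized counts per kilobase of exon (log axis) of the 44 cyclin and CDK genes, with the mean and SD of 3 libraries for WT (blue circles) and Ccdc117ko (orange squares). Ccnk, Ccnb2, Ccni and Ccna1 lead, Cdk3 is lowest, and the genotypes lie close together beside the spread between genes.

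Few members changed between the genotypes, and by small amounts. In limma's moderated test over all 32783 genes tested, with Benjamini-Hochberg adjustment, 4 of 44 members (9.09%) passed an adjusted p of 0.05, against 6.80% of all genes tested and 10.2% of genes at least as abundant as the lowest member. Ccnl1 rose, where 3.70% of all genes did, and Ccnb3, Cdk5 and Cdk12 fell, where 3.10% did. The share of members called lay near that of all genes, and a p above the threshold does not show that a gene did not differ. The median log2 fold change was -0.11 over the members, with 31 below 0 and 13 above, and 0.0012 over all genes. The 3 values of each genotype did not overlap for 20 members (45.5%; 27.0% of all genes), 15 of them lower (13.3% of all genes) and 5 higher (13.7%). The authors' deposited table lists 10 of the 44 with an FDR under 0.05, 8 lower and 2 higher, against 11.5% of its genes. Unlike the 10.2%, the shares without overlap and the 11.5% also cover genes less abundant than any member. The 10 members on the authors' list are the 4 called here and Ccnd3, Cdk2, Cdk6, Cdk8, Cdk13 and Cdk19.

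**Figure D2:**
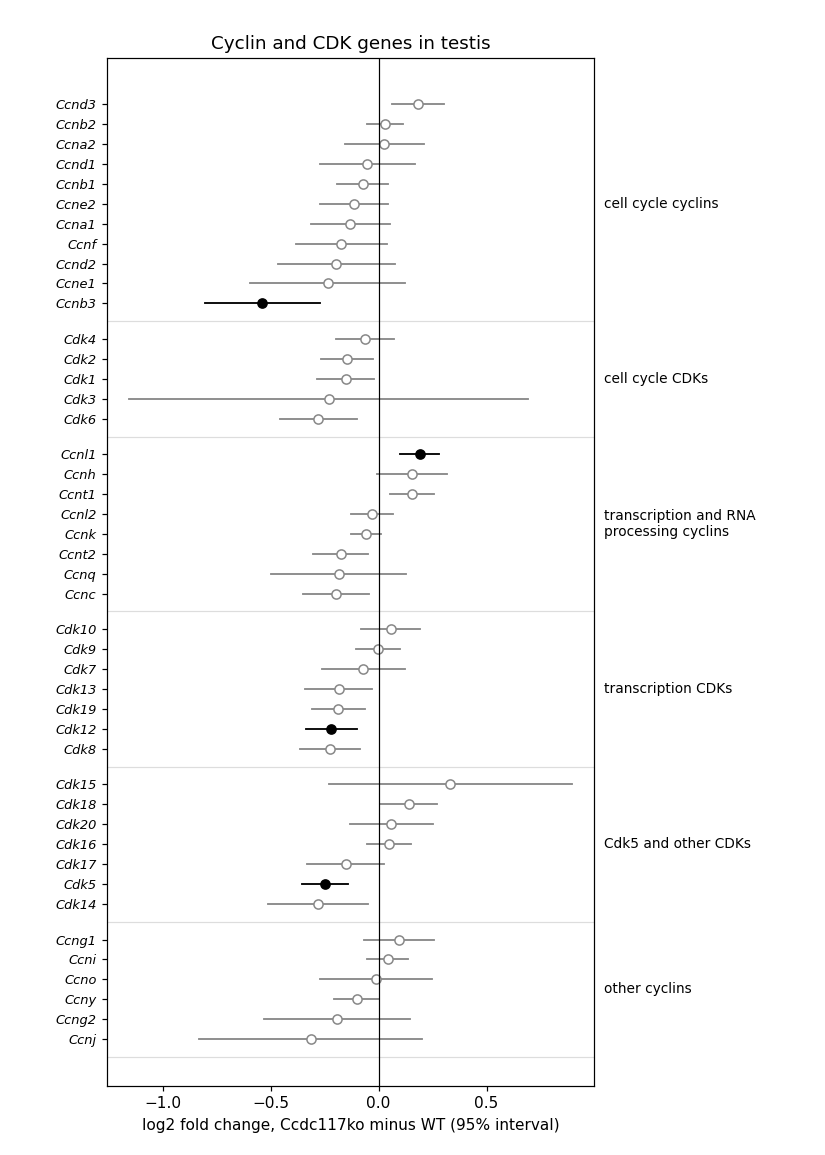
Log2 fold change of Ccdc117ko against WT for each of the 44 genes with its 95% interval from limma, grouped by role; filled black points passed an adjusted p of 0.05. Ccnb3, Cdk5 and Cdk12 lie below 0 and Ccnl1 above it, and Cdk3, Cdk15 and Ccnj have the widest intervals.

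Ccnb3, a B-type cyclin, had the largest fold change of the 4 called members. Ccnb3 (mm10, chrX:6979652-7041619, minus strand) encodes the cyclin of early meiotic prophase. It had 116, 115 and 114 normalized counts in WT against 79.9, 74.2 and 82.6 in Ccdc117ko, so each Ccdc117ko library lay below each WT library and the WT values differed little from each other. The level went from 115 ± 1.07 to 78.9 ± 4.32 normalized counts as mean ± SD of 3 libraries, a fold of 0.686 and a limma log2 fold change of -0.54 (SE 0.12, adjusted p = 0.0358). The other B-type cyclins, which carry Cdk1 into division, did not pass. Ccnb1 had 2898, 3124 and 3066 normalized counts in WT against 3007, 2718 and 2911 in Ccdc117ko, and the interval of its fold change ran from 0.875 to 1.03. For Ccnb2 the values were 6066, 6249.6 and 6294 normalized counts in WT against 6541, 6230.2 and 6227 in Ccdc117ko, with an interval of 0.963 to 1.08. Both sets overlap between the genotypes. Of the 12 spermatocyte markers Mei1, Dmc1 and Mybl1 fell (-0.34, -0.26 and -0.37 on the log2 scale), Spag6 rose (0.37) and 8 did not pass. Log2 fold changes were below 0 for 9 of the 12 and above 0 for 3, with a median of -0.11. All Ccdc117ko values lay below all WT values for 5 and above them for 2 (13.3% and 13.7% of all genes). The summed levels given above, in which the most abundant markers weigh most, overlapped between the genotypes. The part of cell make-up in the change of Ccnb3 was not tested.

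No other cell cycle cyclin passed the test. Ccna1 had 5122, 6256 and 6306 normalized counts in WT against 5556, 5206 and 5315 in Ccdc117ko, a log2 fold change of -0.13 (adjusted p = 0.376), with WT replicate 1 the lowest of all. Ccna2 had 403, 421 and 358 normalized counts in WT against 413, 397 and 391 in Ccdc117ko (log2 fold change 0.03, adjusted p = 0.892), and the groups overlap. Ccnd3 had 7192, 6524 and 6297 normalized counts in WT against 7437, 7738 and 7533 in Ccdc117ko. Every Ccdc117ko library was above every WT library for this D-type cyclin, with a log2 fold change of 0.18 (SE 0.05) and a limma adjusted p of 0.0767 that misses the threshold, while the authors' deposited table gives it an FDR of 0.00215. Ccnd1 and Ccnd2, which serve the same step, had log2 fold changes of -0.05 and -0.20, with fold intervals of 0.83 to 1.12 and 0.723 to 1.05. Ccne1 and Ccne2, which bind Cdk2 at the start of DNA replication, had -0.24 and -0.11. Ccne1 had 187 in Ccdc117ko replicate 3, against 268 to 297 in the other 5 libraries. Ccnf, the F-box cyclin that marks proteins for breakdown, had -0.17 (adjusted p = 0.304).

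All 5 CDKs of the cell cycle had log2 fold changes below 0, as did 16342 of all 32783 genes, and none of the 5 passed the test. Cdk6, a partner of D-type cyclins, had 482, 513 and 569 normalized counts in WT against 411, 442 and 433 in Ccdc117ko, a log2 fold change of -0.28 (SE 0.08, adjusted p = 0.0746). Cdk1, the kinase of division, had 1319, 1499.8 and 1439.7 normalized counts in WT against 1281, 1281 and 1261 in Ccdc117ko (-0.15, adjusted p = 0.154). Cdk2 had 2715, 3056 and 2794 normalized counts in WT against 2536, 2636 and 2548 in Ccdc117ko (-0.15, adjusted p = 0.136). For these 3 genes every Ccdc117ko value lay below every WT value, as for 13.3% of all genes. The gap was small for Cdk1, where WT replicate 1 stood at 1319. Cdk4, the other partner of D-type cyclins, had overlapping values and a log2 fold change of -0.06 (fold interval 0.871 to 1.05). At this depth no change of Cdk3 was detectable, with 9.83 to 25.1 normalized counts in WT and 12.2 to 18.1 in Ccdc117ko. Of 11 markers of dividing cells, Top2a fell (-0.35), Pcna rose (0.18) and 9 did not pass. Log2 fold changes were below 0 for 10 of the 11 and above 0 for 1, with a median of -0.10. All Ccdc117ko values lay below all WT values for 4 and above them for 1 (13.3% and 13.7% of all genes). Their summed level was 21912 to 22372 normalized counts in the WT libraries and 20657 to 21286 in the Ccdc117ko libraries, which do not overlap.

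Of the 7 CDKs placed in the transcription and RNA processing class, Cdk12 fell and the other 6 did not pass. Cdk12 (chr11:98203059-98278504, plus strand) phosphorylates the tail of the polymerase during elongation with cyclin K. It had 1470.5, 1415 and 1489 normalized counts in WT against 1188, 1281 and 1289 in Ccdc117ko, with no overlap. Its level fell from 1458 ± 38.7 to 1253 ± 56.1 normalized counts as mean ± SD of 3 libraries, a log2 fold change of -0.22 (SE 0.05, limma adjusted p = 0.0444). Cdk13, its close paralog, had 2658, 2562 and 2973 normalized counts in WT against 2313, 2326 and 2561 in Ccdc117ko. Those values do not overlap, Ccdc117ko replicate 3 and WT replicate 2 lying next to each other, and the log2 fold change of -0.19 did not pass (adjusted p = 0.148). Ccnk, their cyclin, had 22105, 22741 and 22838 normalized counts in WT against 21869, 21357 and 21846 in Ccdc117ko, a log2 fold change of -0.06 (adjusted p = 0.306). Its Ccdc117ko values are all lower.

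No member in the kinase module of Mediator, the complex that links transcription factors to the polymerase, passed the test. Its kinase Cdk8 had 985, 1058 and 1114 normalized counts in WT against 930.4, 890.2 and 879.8 in Ccdc117ko (-0.22, adjusted p = 0.0662). The paralog Cdk19 had 2185, 2382 and 2459.7 normalized counts in WT against 2029.7, 2021 and 2118 in Ccdc117ko (-0.19, adjusted p = 0.0809). Their cyclin, Ccnc, had 569.7, 602 and 642 normalized counts in WT against 548, 516 and 515 in Ccdc117ko (-0.20, adjusted p = 0.12). The values of each gene do not overlap between the genotypes, with Ccdc117ko lower, as for 13.3% of all genes, and the genes were not tested as a group. Of the other subunits of the module on the list of transcription CDK partners, Med13 fell (-0.20, adjusted p = 0.0395) and so did Med12l (-0.33, adjusted p = 0.0403), while Med13l had -0.23 and Med12 -0.13, neither of which passed.

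The cyclins of transcription and RNA processing did not share 1 direction. Ccnl1 (chr3:65946151-65958249, minus strand), whose product works in RNA splicing, was the member that rose. It had 1858, 1883 and 1872 normalized counts in WT against 2099, 2129.9 and 2177 in Ccdc117ko, the WT values within a narrow range and all Ccdc117ko values above them. The level went from 1871 ± 12.5 to 2135 ± 39.3 normalized counts as mean ± SD of 3 libraries, a log2 fold change of 0.19 (SE 0.04, limma adjusted p = 0.0312). Of its exon bases 7.37% overlap Gm37305 on the opposite strand, and whether reads were counted by strand is not given in the sources used here. Ccnl2, the paralog, had 2601, 2532 and 2542 normalized counts in WT against 2482, 2434 and 2611 in Ccdc117ko and a log2 fold change of -0.03 (fold interval 0.917 to 1.05). The cyclins of the elongation factor P-TEFb had fold changes of opposite sign, and neither passed. Ccnt1 had 1129, 1131 and 1082 normalized counts in WT against 1245, 1227 and 1249 in Ccdc117ko (0.15, adjusted p = 0.0814), and Ccnt2 had 715, 727 and 734 normalized counts in WT against 617, 643 and 668 in Ccdc117ko (-0.17, adjusted p = 0.103). Neither overlapped between genotypes, and their kinase, Cdk9, had 2435, 2276 and 2411 normalized counts in WT against 2396, 2405 and 2301 in Ccdc117ko (-0.0035, fold interval 0.93 to 1.07).

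The remaining pairs of this class did not pass. The CDK-activating kinase, which also serves the general factor TFIIH, had log2 fold changes of -0.07 for Cdk7 and 0.16 for Ccnh (adjusted p = 0.67 and 0.235), with 956, 841 and 830.4 against 937, 1027 and 961 normalized counts for Ccnh. Cdk10 had 0.06 and its partner Ccnq -0.19, and Ccnq spread widely, from 172 to 242 in WT. By role, 4 of 7 transcription CDKs had all Ccdc117ko values below all WT values (13.3% of all genes did) and none the reverse (13.7%). Of the 8 cyclins of the class 3 were lower in this sense and 2 higher, against the same shares. With so few genes in a role these counts are a description only.

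Cdk5, which is switched on by p35 rather than by a cyclin and is best known from neurons, had the smallest adjusted p of the 44. Cdk5 lies at chr5:24418241-24423530, minus strand. It had 1243, 1223 and 1222 normalized counts in WT against 1051, 1056 and 997 in Ccdc117ko, and the values of each genotype lay close together. The level fell from 1229 ± 11.9 to 1035 ± 32.9 (SD, n = 3 each), a fold of 0.842 and a log2 fold change of -0.25 (SE 0.05, limma adjusted p = 0.0254). Cdk5r1, which encodes p35, had -0.38 (adjusted p = 0.194) at a mean of 89.5 normalized counts in WT, and Cdk5r2 was near 0, at 2.51. No exon base of Cdk5 or Ccnb3 overlaps a gene of the opposite strand, and no 50-base word of their longest transcripts occurs in another.

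The PCTAIRE and PFTAIRE kinases gave no call. Cdk16, needed for normal sperm, had 6249, 5778 and 5643 normalized counts in WT against 6123, 6101 and 6035 in Ccdc117ko, a log2 fold change of 0.05 with a fold interval of 0.964 to 1.11. Ccny, its cyclin, had 2466, 2619 and 2678 normalized counts in WT against 2451, 2357 and 2425 in Ccdc117ko (-0.10, adjusted p = 0.232), each Ccdc117ko value below the lowest WT value. Cdk17 and Cdk18, close paralogs of Cdk16, had -0.15 and 0.14. Cdk17 had 1029, 1074 and 1235 against 939, 1028 and 1028 and Cdk18 877, 821 and 786 against 909, 899 and 924 normalized counts, WT before Ccdc117ko. Neither set overlaps, though WT replicate 1 and Ccdc117ko replicate 2 nearly meet for Cdk17. Cdk14, another partner of cyclin Y, had 370.1, 398 and 447 against 325, 306 and 369 (-0.28, adjusted p = 0.143), also without overlap. Cdk20, a kinase tied to cilia, had 0.06, and Cdk15 0.33 with a fold interval of 0.852 to 1.86, its libraries ranging from 35.9 to 64.5.

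The atypical cyclins did not pass either. Ccng1, a target of p53, had 341, 344 and 316 against 355, 369 and 345 normalized counts (log2 fold change 0.09, adjusted p = 0.491), with Ccdc117ko replicate 3 just above WT replicate 2. Ccng2, its relative, had 280.0, 402 and 419 against 317, 308 and 322 (-0.19), where WT replicate 1 was below all Ccdc117ko libraries and the other WT libraries above them. Ccni, the most abundant of them, had 12351, 11880.2 and 12248 against 11977, 13143 and 12448 normalized counts, which overlap (0.04), with a fold interval of 0.963 to 1.1. Ccno, a cyclin of multiciliated cells, had -0.01 (0.829 to 1.19) and Ccnj -0.31 (0.562 to 1.15).

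**Figure D3:**
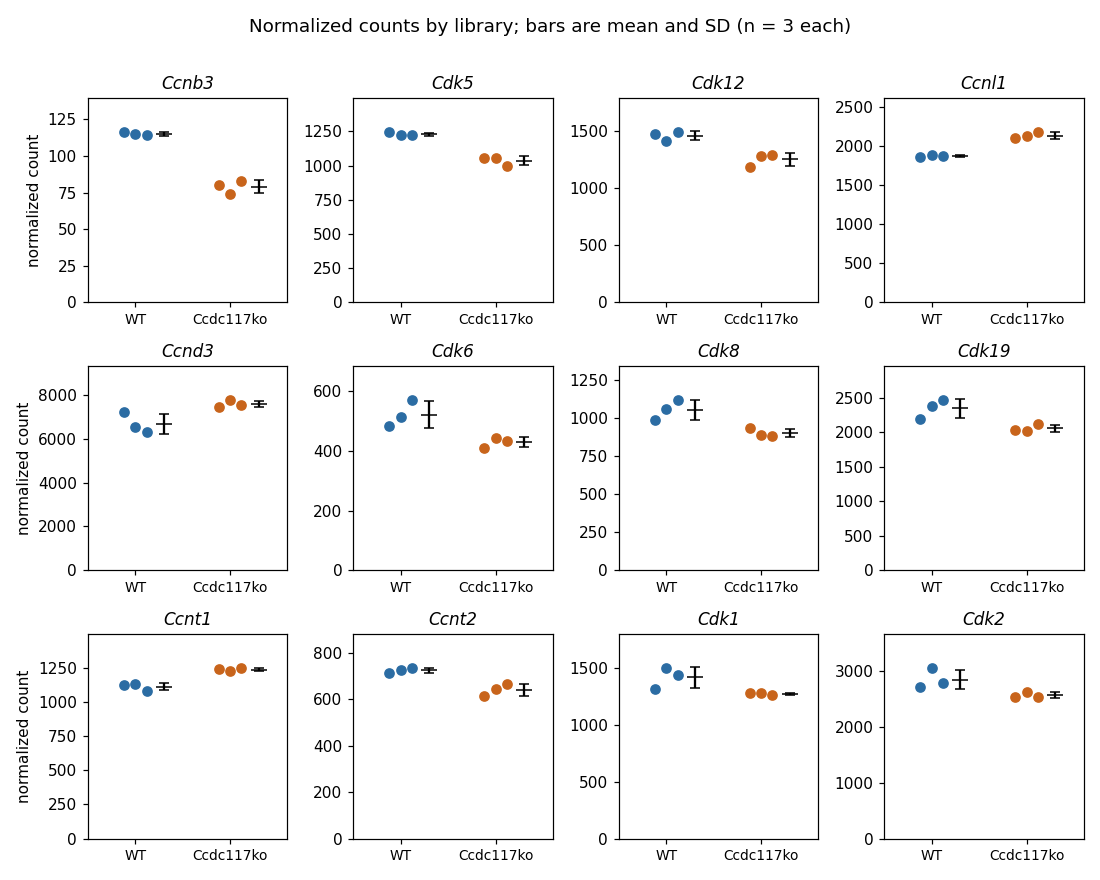
Normalized counts in each library (points, replicates 1 to 3 from left to right) for 12 cyclin and CDK genes, with the mean and SD of 3 libraries beside them; each axis starts at 0. The genes were picked from members whose WT (blue) and Ccdc117ko (orange) values do not overlap, so all 12 panels separate by choice. Values overlap in 24 of the 44 members, and 27.0% of all genes have no overlap. Ccnb3, Cdk5, Cdk12 and Ccnl1 in the top row passed the test and the other 8 did not.

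Transcript length moved with the fold changes. Across 22837 genes that averaged 10 or more normalized counts, length and log2 fold change had a Spearman's rho of -0.348, and across the 44 members one of -0.211, genes not being independent replicates. The 22 members with a longest transcript over 3590 bases had a median log2 fold change of -0.17 and the 22 others -0.06. Once a curve fitted to length and GC content had been subtracted within each library, the medians were -0.07 and -0.04. The trend runs with genotype, so its removal also takes away any genotype change tied to length. With the correction 1301 genes rose (3.98%) and 557 fell (1.70%), against 1212 and 1016 without it, and 5 members passed (5.68% of all genes did), 4 higher and 1 lower. Cdk5 (-0.25, adjusted p = 0.0206) and Ccnl1 (0.24, 0.0138) kept their calls. Ccnb3 kept most of its fold and lost the call (-0.48, 0.058). Cdk12 went from -0.22 to -0.09 (adjusted p = 0.392), and Cdk13, with the longest transcript of the 44, from -0.19 to -0.04. Ccnd3 (0.28, 0.0173), Ccnt1 (0.28, 0.0183) and Cdk18 (0.25, 0.0414) passed as higher after it. Cdk8 and Cdk19 went to -0.18 and -0.08, and Ccnc to -0.18.

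**Figure D4:**
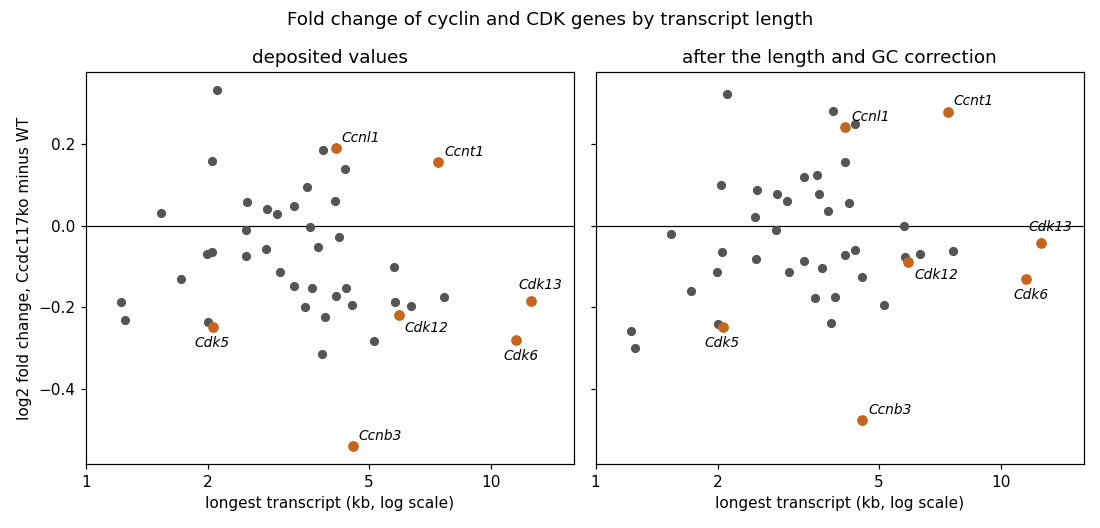
Log2 fold change of Ccdc117ko against WT for the 44 genes by the length of their longest transcript (log axis), from the deposited values (left) and with a curve fitted to length and GC content subtracted (right); 7 genes are marked in orange. Cdk12, Cdk13 and Cdk6 move toward 0 on the right, Ccnt1 moves up, and Cdk5 and Ccnb3 stay well below 0.

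The calls also rested on the number of libraries and on the filter. In the limma fit over all tested genes, Ccnb3, Cdk5, Cdk12 and Ccnl1 each lost their call whichever library was left out, with adjusted p of 0.0667 to 0.116, 0.052 to 0.11, 0.0886 to 0.155 and 0.052 to 0.111. Without WT replicate 1 the members called were instead Ccnd3, Ccna1, Ccng2 and Cdk19, with 3.87% of all genes called. Without any 1 of the other libraries 0 members were called, with 12 or 13 below 0.05 before adjustment. Of all 32783 genes, 6 to 22 were called in those fits, with 5817 to 6742 below 0.05 before adjustment. With all libraries 16 members were below 0.05 before adjustment, and 22.7% of all genes were. When only the 22878 genes averaging 10 or more normalized counts were tested, of which 16.6% were called, 8 members passed: Ccnl1 and Ccnd3 (adjusted p = 0.0189 and 0.0262) as higher, and Cdk5 (0.0116), Ccnb3 (0.0207), Cdk12 (0.0223), Cdk8 (0.0347), Cdk19 (0.0388) and Cdk6 (0.039) as lower. With that filter Cdk5 passed whichever library was left out (adjusted p = 0.0192 to 0.0467). Ccnb3 did not pass without WT replicate 2 or 3 or Ccdc117ko replicate 2, Cdk12 without WT replicate 3 or Ccdc117ko replicate 1 or 2, and Ccnl1 without WT replicate 3 or Ccdc117ko replicate 2 or 3, with adjusted p up to 0.0795, 0.0829 and 0.0689.

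Genes that control cyclins and CDKs moved in both directions. Over 8 lists, 103 of 106 genes were in the table, and 4 rose and 9 fell. Of all genes tested, 3.70% rose and 3.10% fell, 6.80% in either direction. Among genes at least as abundant as the lowest member 10.2% were called, a level that Cdk5r2 on these lists did not reach. The median log2 fold change was -0.09. Among CDK inhibitors, of 8 tested 1 rose, 1 fell and 6 did not pass, with a median log2 fold change of -0.11. Cdkn1b, which encodes the inhibitor p27, fell from 423 ± 27.4 to 295 ± 16.7 normalized counts, mean ± SD of 3 libraries (-0.52, adjusted p = 0.0172). Cdkn3, a phosphatase that acts on CDKs, rose from 4052 ± 86.2 to 4624 ± 221 (0.19, adjusted p = 0.0452). Cdkn1a, the p53 target p21, had -0.15 and did not pass.

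Enzymes with opposed effects on Cdk1 both rose. Cdc25c, which removes inhibitory phosphates from Cdk1, rose from 723 ± 5.50 to 897 ± 46.2 normalized counts, mean ± SD of 3 libraries (0.31, adjusted p = 0.0229). Pkmyt1, which adds them, rose from 2567 ± 249 to 3184 ± 71.3 (0.31, adjusted p = 0.039). Of the 6 phosphatases and inhibitory kinases, 4 did not pass, with a median of -0.05. Among 10 binding partners none was called (median -0.04), and the most abundant, Spdya, a non-cyclin activator of Cdk2 in meiosis, and Cks2, had -0.01 and 0.09.

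Of genes for cyclin breakdown, of 24 tested 0 rose, 2 fell and 22 did not pass, with a median log2 fold change of -0.10. Anapc1 and Anapc5, subunits of the anaphase-promoting complex, fell (-0.23, adjusted p = 0.0436, and -0.16, adjusted p = 0.0465), while its activators Cdc20 and Fzr1 had -0.09 and 0.03 and did not pass. Of the Rb, E2F and Myb list, of 20 tested 1 rose, 1 fell and 18 did not pass, with a median log2 fold change of -0.11. Rbl2, which encodes the pocket protein p130, rose from 4476 ± 119 to 5265 ± 172 normalized counts, mean ± SD of 3 libraries (0.23, adjusted p = 0.0206), and Mybl1, the meiotic A-Myb, fell from 1739 ± 146 to 1341 ± 22.4 (-0.37, adjusted p = 0.0206). Rbl1, the p107 gene, had -0.26 with an adjusted p of 0.0504, and was named after its value was seen.

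Among partners of transcription CDKs, of 11 tested 0 rose, 2 fell and 9 did not pass, with a median log2 fold change of -0.13, the falls being Med13 and Med12l. In cyclin-like and CDK-like genes that the symbol rule leaves out, of 10 tested 0 rose, 2 fell and 8 did not pass, with a median log2 fold change of 0.0005. Cntd1, a cyclin-like protein of meiotic crossovers, fell from 4016 ± 123 to 3426 ± 94.1 normalized counts, mean ± SD of 3 libraries (-0.23, adjusted p = 0.0226), and Cdkl2 fell from 5009 ± 253 to 4293 ± 36.0 (-0.22, adjusted p = 0.0296). For mitotic kinases and the spindle checkpoint, of 14 tested 0 rose, 1 fell and 13 did not pass, with a median log2 fold change of -0.07. Ttk, the checkpoint kinase Mps1, fell from 2073 ± 81.6 to 1767 ± 36.7 (-0.23, adjusted p = 0.0296), and Plk1 had -0.00059. Without WT replicate 1, 9 of the 103 genes passed in limma, as did 3.87% of all genes. Without any 1 of the other libraries 0 of the 103 did, with 25 to 36 at an unadjusted p under 0.05. Of all 32783 genes, 6 to 22 passed in those fits. After the length and GC correction 8 of the 103 passed, as did 5.68% of all genes. Anapc1, Anapc5, Med13, Med12l, Cdkl2 and Cdkn3 no longer did, with log2 fold changes of -0.08, -0.09, -0.08, -0.17, -0.17 and 0.16, and Ell2, an elongation factor gene named after its value was seen, did (0.21, adjusted p = 0.0469; 0.14 before).

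**Figure D5:**
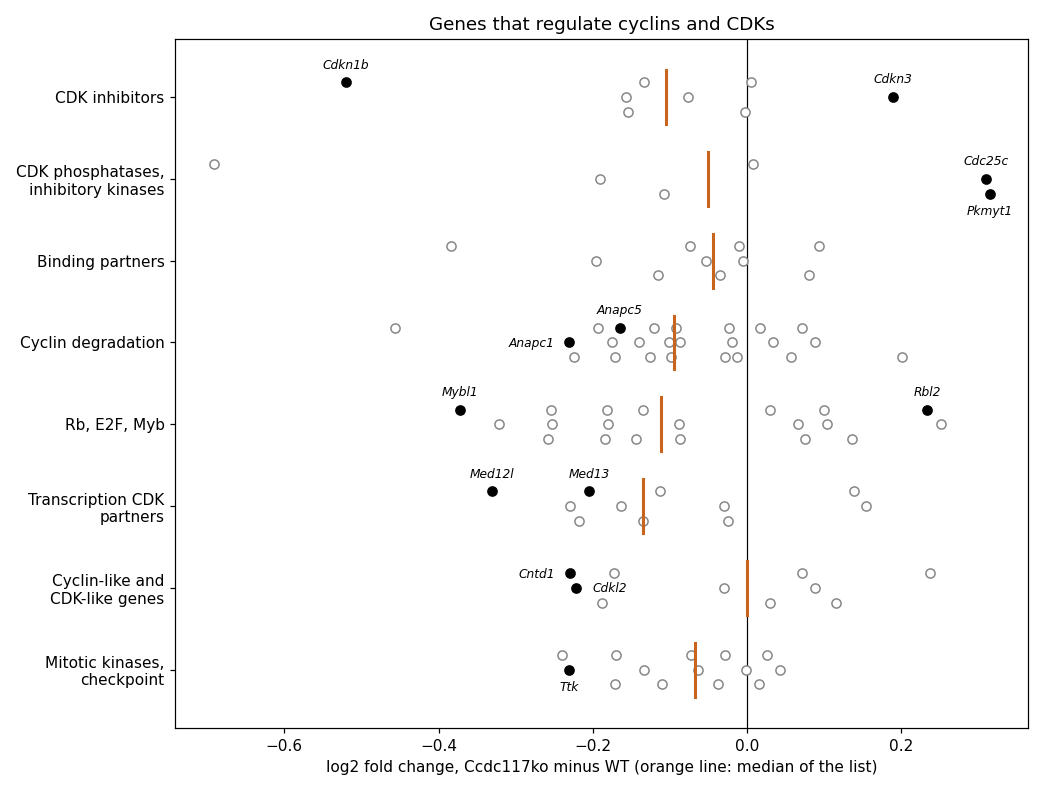
Log2 fold change of Ccdc117ko against WT for the 103 genes that regulate cyclins and CDKs, by list; filled points with a name passed an adjusted p of 0.05 in limma, and orange lines mark the median of each list. Cdc25c, Pkmyt1, Rbl2 and Cdkn3 lie above 0 and Cdkn1b, Mybl1 and the 7 other called genes below it.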

How the data were processed

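Testis RNA was sequenced from stranded mRNA libraries, per the labels' protocols. STAR, DESeq2 and mm10 are named, without roles, in the submitters' processing notes. How reads were counted, and whether by strand, is not stated in them. Per library, the authors deposited log2 values, read from the values as log2(normalized count + 1): 100% of values under 500 reads were whole multiples of 1 step within 0.01. The authors' mean log2 per genotype, log2 fold change, p-value and FDR are deposited beside them, and their test is not stated.

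The planned design allowed for raw counts. For the log2 values deposited, limma 3.58.1 in R 4.3.3 was fitted with a mean-variance trend, genotype being the term, over 32783 genes with a mean of at least 0.5, with two-sided p-values adjusted by Benjamini-Hochberg. Fold changes are on the log2(value + 1) scale, which understates those of low genes. Coordinates and lengths are from GENCODE M21 (mm10), which matched 36551 identifiers. The length and GC trend used natural splines with knots at the 25, 50 and 75 percentiles, fitted on genes with a mean of at least 10.

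Members and lists were chosen with earlier results of these data known. Named are all members and up to 4 called genes of a regulator list (or the 2 most abundant). Up to 3 called genes of a marker list are named, with all 4 of the spermatocyte list as an exception. Regulators named outside this rule are Cdk5r1, Cdk5r2, Cdkn1a, Cdc20, Fzr1, Plk1, Med12 and Med13l, besides Rbl1 and Ell2. Values by library are given for members that were called, did not overlap, led their role group or are paralogs of a called member, and also, chosen after their values were seen, for Ccna1, Ccna2, Ccng2 and Ccnh, with 1 library of Ccne1. By limma, of 11 marker lists, peritubular, macrophage and Leydig markers (5, 6 and 8 genes) had 1, 2 and 2 lower and 0, 0 and 3 higher. Of 8 elongating spermatid markers 1 was higher, and endothelial and epididymal markers had 0 called. Among all genes tested 3.10% were lower and 3.70% higher. Libraries of a genotype differed by more than sampling noise (chi-square per degree of freedom 4.43 to 7.00), which does not tell separate mice from separate preparations of 1 sample. The fit was tested on simulated reads.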

Additional observations from a re-analysis of the deposited data

How the results depend on the processing

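The 44 members gave 4 calls with no filter, with a pseudocount of 0.5 or 5 and with limma-voom on the recovered reads. They gave 3 with upper-quartile scaling (Cdk12 lost) and 5 with the length and GC correction. Of all genes, 5.68% were called with that correction and 6.05% to 7.40% under the other settings just named. With a mean of at least 10, calls came to 3798 genes (16.6%), 8 members and 21 regulators. With at least 1 CPM in 3 libraries they came to 4127 of 18522 genes (22.3%), 9 of 43 members and 24 regulators. Cdk3 was not tested under that setting, and the larger counts of members came with larger shares of all genes. The regulators gave 13 in the main analysis and 8 after the length and GC correction. With each library left out, all genes gave 6 to 1268 calls in limma (0.0183% to 3.87%), members 0 to 4 and regulators 0 to 9. Members at an unadjusted p under 0.05 numbered 12 to 23. With a mean of at least 10 as well, a combination chosen after the data were seen, calls were 1714 to 4021 (7.49% to 17.6%), 1 to 14 and 7 to 29. Where 1 library is left out of a group of 3, the variance is estimated over 5 libraries.

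The replicate numbers of the labels did not pair the libraries: deviations of same-numbered libraries correlated at -0.003, -0.004 and 0.006, and not every library correlated best with its own number. With the replicate block, limma called 703 genes (2.14%), 0 members (16 at an unadjusted p under 0.05) and 1 regulator.

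Signs reversed only for genes near 0 that passed under none of these settings. After the length and GC correction log2 fold changes were Ccnb2 -0.021, Ccnd1 0.035, Ccno 0.020, Cdk9 0.076, Ccnl2 0.056 and Cks2 -0.055, and with upper-quartile scaling Ccno 0.0069, Cdk9 0.014 and Spdya 0.0071. With each library left out they ran from -0.024 to 0.12 for Cdk20, -0.040 to 0.077 for Ccna2, -0.11 to 0.026 for Ccnd1 (also 0.0029), -0.11 to 0.062 for Ccno (also 0.012), -0.14 to 0.0074 for Cdk7, -0.034 to 0.017 for Cdk9 (also 0.0079 and 0.015) and -0.081 to 0.030 for Spdya (also 0.023 and 0.025), the values in brackets being further ones on the other side of 0. Depth limits Cdk3, with 9.83 to 25.1 normalized counts.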

Other observations

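The balance between paralogs was read as a ratio of normalized counts within each library. These pairs were chosen after their values were seen, so the ratios are a description with no test. Ccnt1 to Ccnt2, the cyclins that share Cdk9, stood at 1.58, 1.56 and 1.47 in WT against 2.02, 1.91 and 1.87 in Ccdc117ko. Ccnl1 to Ccnl2 stood at 0.714, 0.744 and 0.736 in WT against 0.845, 0.875 and 0.834 in Ccdc117ko. In both pairs every Ccdc117ko ratio lay above every WT ratio. Ccnd3 to Ccnd2 gave 32.2, 35.3 and 30.5 in WT against 46.8, 39.3 and 41.8 in Ccdc117ko, also without overlap. Ccnb2 to Ccnb1 was at most 2.09 in WT and at least 2.14 in Ccdc117ko, without overlap as well, although the values of either gene alone overlap and reads of Ccnb1 may be split with its copies. Cdk12 to Cdk13 gave 0.553, 0.552 and 0.501 in WT against 0.514, 0.551 and 0.503 in Ccdc117ko, and Cdk8 to Cdk19 0.451, 0.444 and 0.453 in WT against 0.458, 0.440 and 0.415 in Ccdc117ko, both overlapping. Ccna1 to Ccna2 ran from 12.7 to 17.6 in WT and from 13.1 to 13.6 in Ccdc117ko, the latter inside the former.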
